A study of Mus musculus with 2 samples.

Results

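The circadian clock genes of kidney regulatory T cells (Tregs) are described here through 10 genes, namely the activators Clock and Arntl (also named Bmal1), the repressors Per1, Per2, Per3, Cry1, Nr1d1 and Nr1d2, and the output factors Dbp and Tef. They were chosen by name. All 10 were among the 22911 genes that the arrays name, through 21 of 56605 probes, and all 10 were measured on both arrays, as were 13743 genes in all. The cells were sorted from mouse kidney on day 28 after induction of cGN, a kidney injury raised with anti-GBM antibodies, directed at the basement membrane of the glomerulus, as T cells positive for CD45, CD3e and CD4 and for the FoxP3-hCD2 reporter, which marks cells that express Foxp3. Total RNA labelled with Cy3 went to 2 single-colour arrays, array 2 with cells from mice given anti-GBM lot M and array 1 with cells from mice given lot I, per the scanner output. Both carried the same induction, tissue and sort, and differed in the lot, on which the severity of disease depended according to the labels.

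Scanner output and value table name opposite lots for each array. Array 2 matched the column labelled lot I in the deposited value table and array 1 the column labelled lot M, each with an SD of 0.00016 for the log2 of signal over value. The arrays are therefore named by number, and every difference is array 2 minus array 1, so that lot M stands first if the scanner output is right and lot I if the value table is. With 1 array per lot there is no replicate and no test. A level is the log2 of a probe's signal over the 75th percentile of its array, and a gene's level is the mean over its probes that were well above background on both arrays. The ± beside a difference is 1 error as the scanner models it for a spot, without any spread among mice, lots or labellings. Levels of different probes are not compared with each other, because each probe has its own brightness. The labels give the day of collection and not the hour, so the hour could not be compared between the arrays. Whether an array held RNA of 1 mouse or of several is not stated in the labels.

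The clock is a feedback loop of transcription. CLOCK and ARNTL bind E-box sequences and switch on the Per, Cry, REV-ERB and PAR bZIP genes, PER and CRY proteins then hold the activators back, and the REV-ERB proteins repress Arntl. In most mouse tissues that have been followed over the day, Arntl peaks when Nr1d1, Dbp and the Per genes are low, and Cry1 peaks later than the Per genes. Per1 is also induced directly by glucocorticoids and by cAMP signalling.

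Motifs of this loop were read in the promoters, to show which of the genes carry letters of the loop near their start. RefSeq windows of 250 bases before the transcript start (GRCm38.p6) were found for 9 of the 10 genes, 14 windows in all. Searched on both strands were the E-box CACGTG, the E-prime box CACGTT, the D-boxes TTATGTAA and TTACGTAA bound by PAR bZIP factors, the core AGGTCA of the element shared by ROR and REV-ERB factors, the cAMP element TGACGTCA and the full palindromic glucocorticoid element. The E-box and the other letters below do not overlap each other. Shown are the windows of Per1 (chr11:69098699-69098948, plus strand), which had the highest difference of the 10 genes, Cry1 (chr10:85185055-85185304, minus strand), which had the lowest, Tef (chr15:81802423-81802672, plus strand) and Per3 (chr4:151044666-151044915, minus strand). They are written 5′ to 3′ along the gene, with the matches in capitals.
Per1: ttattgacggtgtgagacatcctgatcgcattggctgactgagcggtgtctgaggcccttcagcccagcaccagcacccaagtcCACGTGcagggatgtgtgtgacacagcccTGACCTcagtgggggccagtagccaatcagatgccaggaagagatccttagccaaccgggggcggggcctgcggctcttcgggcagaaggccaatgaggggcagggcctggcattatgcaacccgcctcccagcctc
Cry1: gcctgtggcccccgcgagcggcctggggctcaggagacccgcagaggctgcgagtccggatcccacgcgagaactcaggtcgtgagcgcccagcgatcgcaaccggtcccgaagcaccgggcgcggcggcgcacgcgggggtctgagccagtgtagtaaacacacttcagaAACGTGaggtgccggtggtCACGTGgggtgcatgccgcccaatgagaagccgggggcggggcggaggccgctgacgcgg
Tef: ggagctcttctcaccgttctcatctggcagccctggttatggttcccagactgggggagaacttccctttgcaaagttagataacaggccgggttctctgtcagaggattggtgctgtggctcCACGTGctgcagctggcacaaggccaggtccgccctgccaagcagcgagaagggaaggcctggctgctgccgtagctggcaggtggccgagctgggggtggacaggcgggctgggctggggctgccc
Per3: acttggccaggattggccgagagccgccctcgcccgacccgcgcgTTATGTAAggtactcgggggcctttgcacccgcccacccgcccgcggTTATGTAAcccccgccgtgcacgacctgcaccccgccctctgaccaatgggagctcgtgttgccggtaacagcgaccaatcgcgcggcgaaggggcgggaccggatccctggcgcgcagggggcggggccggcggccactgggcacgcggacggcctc

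The E-box stood in 4 of the 14 windows, 1 of Per1, 1 of Cry1 and 2 of Tef, and in 6.02% of all 32851 windows of this length. It began 166 bases before the start in Per1, 60 in Cry1 and 127 in the window shown for Tef. The D-box TTATGTAA stood in 1 of the 14, that of Per3, at 2 places, and in 0.819% of all windows. The E-prime box was found in 2 of the 14, those of Cry1 and Nr1d1 (3.85% of all windows), and AGGTCA in 3, of Clock, Per1 and Nr1d2 (14.0%). No match was found in these windows for Arntl and Dbp, and none in any of the 9 genes for TTACGTAA, the cAMP element or the full glucocorticoid element. Over all windows, TTACGTAA stood in 0.113%, the cAMP element in 1.55% and the full glucocorticoid element in 0.00913%. At such shares 14 windows would be likely to hold none, so this absence says little about the genes. A match is a description of letters and no measure of binding.

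**Figure D1:**
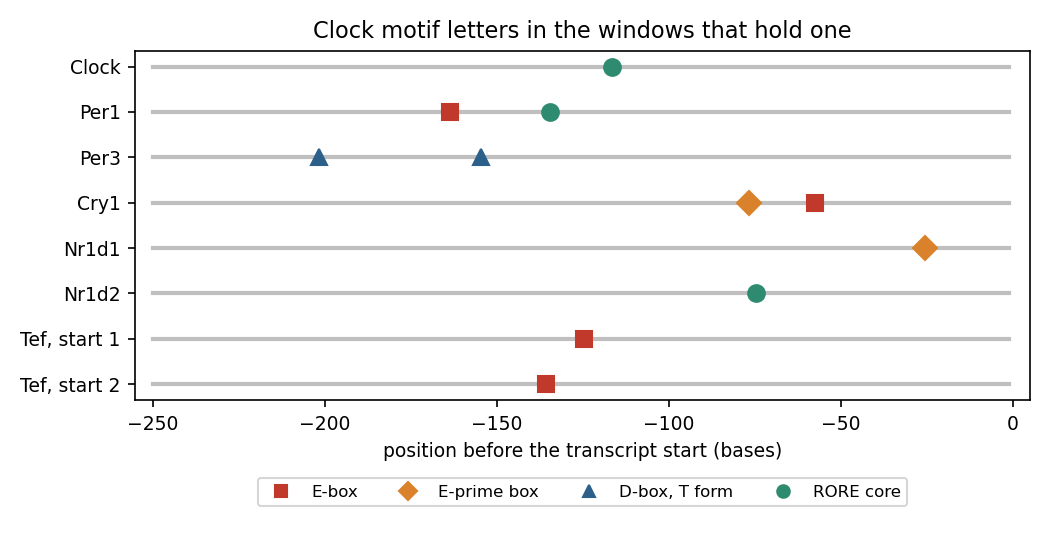
Position of motif letters (x axis, bases before the transcript start) in the 250-base windows that hold at least 1 match, 1 line per window; Tef has a start of its own for each of its windows. The E-box squares lie in Per1, Cry1 and Tef, the D-box triangles in Per3.

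The clock genes as a whole differed little between the arrays and did not move in 1 direction. Because some of them peak when others are low, values pooled over the 10 cannot show a difference in time of day. Pairs of opposite phase are compared below. Of the 10 genes, 5 were higher and 5 lower on array 2, where 53.8% of all genes were higher and 46.2% lower, and their median difference was -0.003 against 0.01 for all genes. None was 2-fold or more apart, against 1.34% of all genes higher and 0.0873% lower by that limit, and none was 1.5-fold apart (5.15% and 0.815% of all genes). None reached 2 errors, which 7.9% of all genes did upwards and 2.29% downwards. The differences of 7 of the 10 lay within 1.1-fold, and the 3 that lay 1 error or more from 0 were those of Per1, Per2 and Cry1, where 28.6% of all genes did so.

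**Figure D2:**
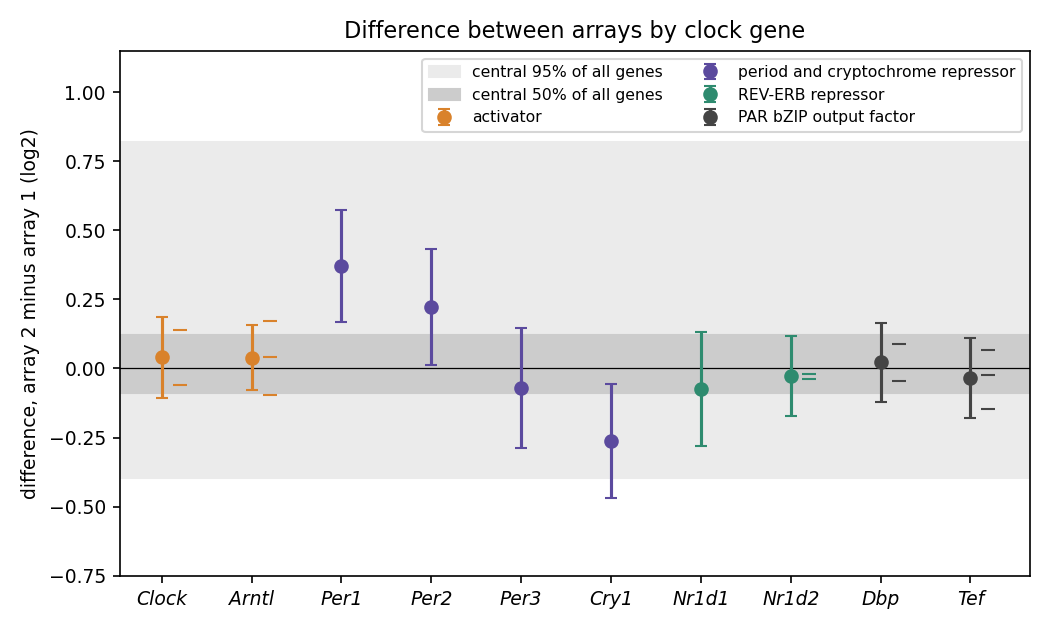
Difference between the arrays (array 2 minus array 1, log2) for each clock gene, with 1 error of the scanner's spot model as the bar and dashes for the single probes where there are several. Shaded bands hold the central 50% and 95% of the 13743 genes measured on both arrays, the wider from -0.40 to 0.82; all 10 genes lie inside it, with Per1 at 0.37 and Cry1 at -0.26 at the ends.

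The activators were nearly level. Clock, a histone acetyltransferase and the partner of ARNTL, stood at -0.03 on array 2, against -0.07 on array 1, a difference of 0.04 ± 0.15. Its measured probes gave -0.06 and 0.14, so they did not share a sign, and another probe was too dim to be called above background on both. Arntl, without which the clock of mouse tissues stops, stood at 1.03 on array 2, against 0.99 on array 1, a difference of 0.04 ± 0.12. Its 3 probes had levels of 2.08, 0.44 and 0.58 on array 2 and 2.04, 0.53 and 0.40 on array 1. Their differences ran from -0.10 to 0.17, a wider range than the difference of the gene. Scaling by spike-in controls, which takes 0.07 off every difference, turned the sign of both activators.

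The period and cryptochrome genes held both the highest and the lowest difference. Per1, a repressor that is also an early response gene, had a signal of 10098 on array 2 and 7980 on array 1, that is 5.17 on array 2, against 4.80 on array 1, as levels. Its difference of 0.37 ± 0.20 (1.29-fold) came from 1 probe, the only one the arrays name for it. Of the 7793 genes whose mean level lay above the 75th percentile, 3.26% had a difference at least as high, and of all genes 9.22%. On such bright probes the SD among 10 spots of one probe had a median of 0.033 on array 2 and 0.034 on array 1, below the error the scanner's model gives.

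Per2, the partner of PER1 in the repressor complex, stood at -1.52 on array 2, against -1.74 on array 1, a difference of 0.22 ± 0.21. It was the only other member of the 10 with a difference above 0.04. The value rests on 1 probe with a signal of 97.5 on array 2 and 85.4 on array 1, and its other probe was too dim to be called above background. Of the 5950 genes with a mean level below the 75th percentile, 26.5% had a difference at least as high, so that a difference of this size was common at this brightness. Per3, which is dispensable for the mouse clock, stood at -2.11 on array 2, against -2.03 on array 1 (-0.07 ± 0.22), again from 1 of its probes.

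Cry1, a strong repressor of CLOCK and ARNTL that acts late in the cycle, went the other way. Its signal was 146 on array 2 and 180 on array 1, giving levels of -0.93 for array 2 and -0.67 for array 1. The difference was -0.26 ± 0.21 (0.834-fold), from 1 of 2 probes, and 12.4% of the genes below the 75th percentile were as low or lower. Per1 and Cry1, which both hold an E-box in the windows printed above, stood 0.63 ± 0.29 apart in their differences. That pair was chosen after its values were seen, and scaling cancels in it.

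The REV-ERB genes, which encode nuclear receptors that bind haem and repress Arntl, were close to level on both arrays. Nr1d1 stood at -1.16 on array 2, against -1.08 on array 1 (difference -0.07 ± 0.21). Nr1d2 stood at 0.57 on array 2, against 0.59 on array 1 (difference -0.03 ± 0.14), and its probes gave -0.02 and -0.04. Of the 5 members with several measured probes, it alone had probes of a single sign. The 6 repressors together had a median difference of -0.05, with 2 higher and 4 lower on array 2.

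The output factors were level too. Dbp, an activator of D-box genes whose RNA swings widely over the day in mouse liver and kidney, stood at 2.85 on array 2, against 2.83 on array 1, a difference of 0.02 ± 0.14. Its probes had signals of 2368 and 1719 on array 2 and 2495 and 1652 on array 1, so that 1 was lower and the other higher on array 2. Tef, a relative of Dbp, stood at 0.24 on array 2, against 0.28 on array 1 (-0.03 ± 0.14). Its brightest probe stood at 4.04 on array 2, against 4.06 on array 1, and its dimmest one at -3.85 on array 2, against -3.71 on array 1.

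**Figure D3:**
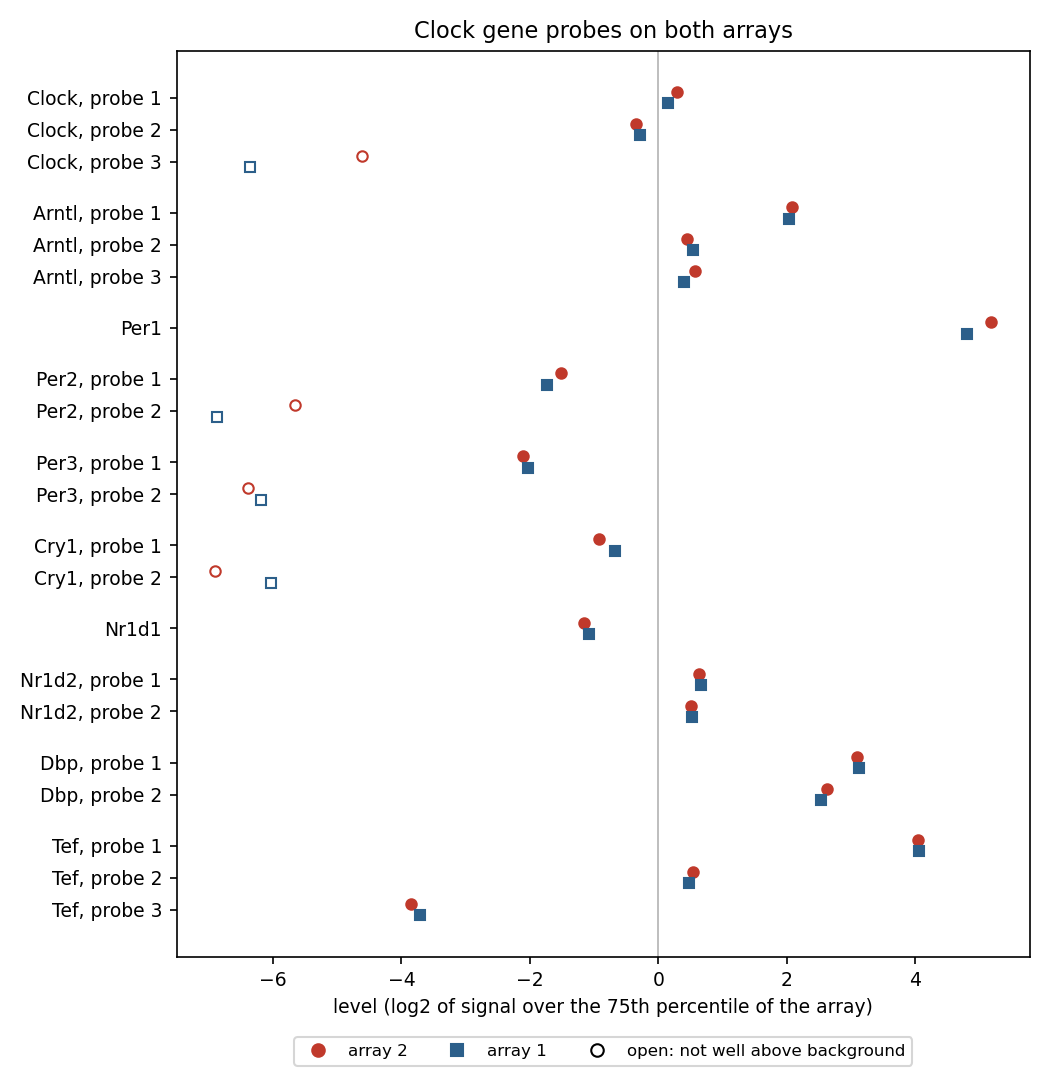
Level of every probe of the 10 clock genes (x axis, log2 of signal over the 75th percentile of the array), circles for array 2 and squares for array 1, with probes of a gene numbered from bright to dim on array 1. The 17 filled pairs were well above background on both arrays and lie close together, with 7 higher and 10 lower on array 2, while the 4 open pairs were not well above background on either.

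Pairs of genes that run in opposite phase over the day were compared within each array, where scaling cancels. Nr1d1 relative to Arntl differed between the arrays by -0.11 ± 0.24 on the log2 scale. Dbp relative to Arntl differed by -0.02 ± 0.19, and Per2 relative to Arntl by 0.18 ± 0.24. These 3 lay within 1 error of 0, whereas Per1 relative to Arntl differed by 0.33 ± 0.24, more than 1 error from 0. The activators had a median of 0.04, the repressors of -0.05 and the output factors of -0.006. The repressors pool the Per genes with Cry1, which peaks later, so their median cannot show a difference in time of day.

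Other transcription factors of the clock also stayed below 2 errors. On bright probes that limit is wide, because spots of one probe varied by less than 1 error, as given for Per1. Of 11 in the list, 8 were measured on both arrays, 4 higher and 4 lower on array 2, with a median of -0.06. Hlf, the remaining PAR bZIP factor, had the largest difference in size, at 0.61 on array 2, against 0.94 on array 1 (-0.33 ± 0.20). Rora, an activator of Arntl and in T cells a factor of tissue Tregs and type 17 cells, was at 4.46 on array 2 and 4.72 on array 1. Its difference was -0.26 ± 0.14, with both measured probes lower on array 2. Among the 7793 genes used for Per1 above, 0.744% were as low as Hlf or lower, and 1.72% as low as Rora or lower. Both shares are smaller than the 3.26% that were at least as high as Per1.

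Bhlhe40, an E-box repressor that activated T cells use, differed by -0.18 ± 0.20, while its relative Bhlhe41 differed by 0.15 ± 0.37 at a dim signal. Cry2 (0.04 ± 0.20), Nfil3, the repressor at D-boxes (0.09 ± 0.14), and Arntl2 (0.13 ± 0.31) lay above 0. Ciart, a repressor of CLOCK and ARNTL, had a probe well above background on array 1 only, at a level of -4.18 near that array's detection floor of -4.62. Its difference of -0.44 ± 0.45 lay within 1 error of 0. Another Ciart probe, too dim on both arrays, went the other way (1.27 ± 1.29). Npas2, which can replace Clock, was too dim on both arrays to be called above background, and Rorb had no named probe.

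Kinases, ubiquitin ligases and partners that set the speed of the clock had a median of -0.08, with 2 of 10 higher on array 2. The largest differences in size were those of Tipin (-0.40 ± 0.20), a replication fork protein and partner of TIMELESS, the casein kinase gene Csnk1a1 (-0.18 ± 0.12) and the ubiquitin ligase gene Fbxw11 (0.17 ± 0.12). Csnk1d, the kinase that marks PER proteins for decay, differed by 0.06 ± 0.12. None of the 10 reached 2 errors. Among the same 7793 genes as for Per1, 0.231% were as low as Tipin or lower, and 10.5% were at least as high as Fbxw11.

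Clock-controlled genes split. Of 10, 3 were 1.5-fold or more higher on array 2 and past 2 errors, and the others lay below both limits. Of all genes, 5.15% were higher by that fold and 7.9% by that many errors. Usp2, a deubiquitinase gene with a daily rhythm in many mouse tissues, stood at -2.16 on array 2, against -2.88 on array 1, a difference of 0.72 ± 0.21 (1.65-fold). Of its 2 probes, the dimmer had a signal of only 21.3 on array 2 and 14.6 on array 1. Of the 5950 genes below the 75th percentile, 6.49% had a difference at least as high. Tsc22d3, which encodes the glucocorticoid-induced leucine zipper GILZ, was at 5.70 on array 2 and 4.98 on array 1 (0.72 ± 0.14). Klf9, a transcription factor induced by glucocorticoids, was at 0.49 on array 2 and -0.45 on array 1 (0.94 ± 0.21). Wee1 (-0.01 ± 0.20) and Nampt (-0.02 ± 0.20), targets of the E-box activators, were level. The lowest differences of the list were those of Lonrf3 (-0.41 ± 0.23) and Coq10b (-0.23 ± 0.12). A further Lonrf3 probe, well above background on array 1 only and so left out, differed by -1.55 ± 0.59. The whole list had a median of -0.01, with 4 of 10 higher on array 2. Without Tsc22d3 and Klf9, which are also in the next list, the median was -0.05, with 2 of 8 higher, Usp2 among them.

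Genes that glucocorticoids induce were mostly higher on array 2. Of 7 in that list, which holds Per1, Tsc22d3 and Klf9 too, 6 were higher, with a median of 0.56, and 0.64 without Per1. By 1.5-fold or more 3 of the 7 were higher, and 4 were past 2 errors, beside 5.15% and 7.9% of all genes. Fkbp5, a chaperone of the glucocorticoid receptor, was at 3.14 on array 2 and 2.23 on array 1 (0.91 ± 0.14), and Ddit4, a stress-induced inhibitor of mTORC1, at 6.79 on array 2 and 6.23 on array 1 (0.56 ± 0.20). Zbtb16 was the exception at -0.34 ± 0.27. The difference of Per1 was smaller than those of Klf9, Fkbp5, Tsc22d3 and Ddit4, and larger than that of Sgk1 (0.26 ± 0.20).

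Markers of other kidney cells also differed between the arrays. Of 12 proximal tubule genes, 11 were higher on array 2, with a median of 1.16, and their summed signal was 169 times the 75th percentile on array 2 and 82.3 times on array 1. All 10 genes of the distal nephron and collecting duct were higher (median 0.50, summed signal 134 on array 2 and 99.0 on array 1), as were all 8 macrophage and monocyte genes (median 0.35, summed signal 38.7 on array 2 and 29.8 on array 1). Every gene of these 3 lists had a probe well above background on both arrays. A further probe each of Adgre1, Calb1 and Lrp2 was not, and was left out. Endothelial genes had a median of 0.03 over 5 of 6 genes, with Tek too dim on both arrays. The sorted cells' own markers were level, with a median of -0.009 and a summed signal of 958 on array 2 and 955 on array 1 over 9 of 10 T cell genes, and a median of -0.003 over 6 Treg genes (243 on array 2 and 249 on array 1). In RNA of a whole sorted sample, fewer cells of a type and less RNA per cell cannot be told apart. The part of tubular and macrophage RNA in the level of any clock, clock-controlled or glucocorticoid-induced gene was not tested. That holds for Per1, Per2, Usp2, Klf9, Tsc22d3, Fkbp5, Ddit4 and Sgk1, and also for genes that were level, such as Dbp, Tef and Nr1d1.

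**Figure D4:**
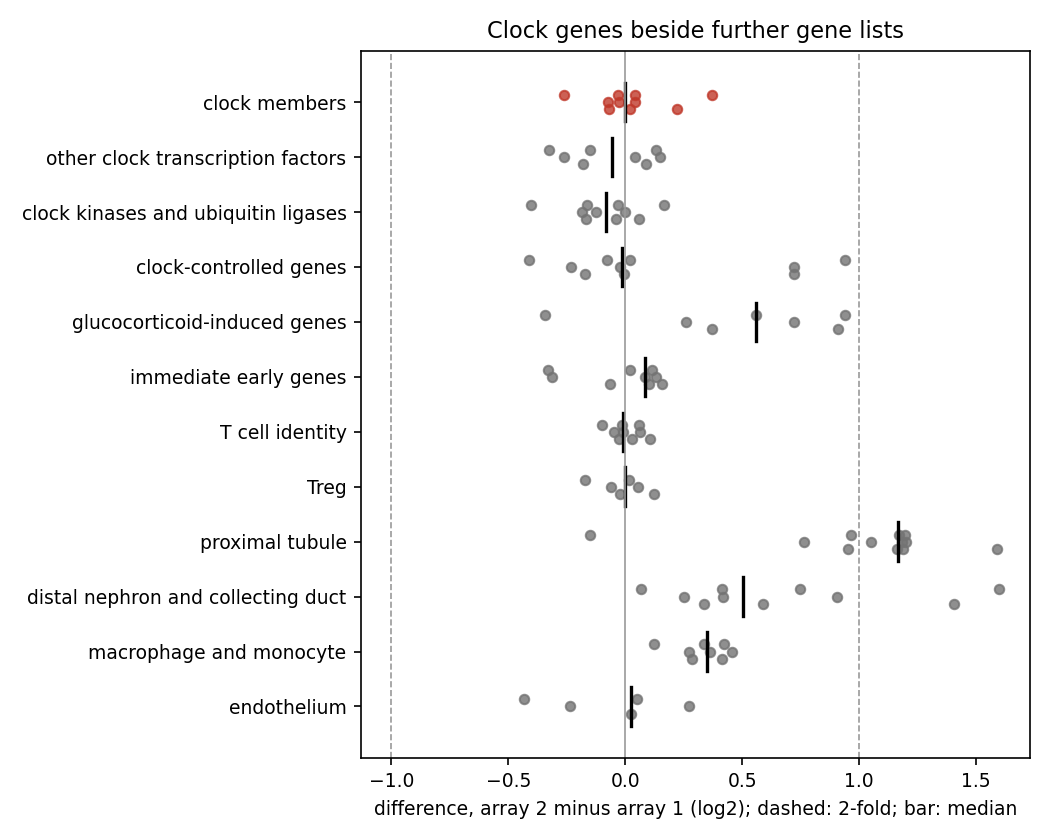
Difference between the arrays (x axis, array 2 minus array 1, log2) for each measured gene of the clock list and of the further lists, with a bar at the median of a list and dashed lines at 2-fold. The clock members lie between -0.26 and 0.37 around a median near 0. The T cell markers (-0.10 to 0.11) and Treg markers (-0.17 to 0.12) also have medians near 0, with narrower ranges. The glucocorticoid-induced list (median 0.56) and the tubular lists have their medians to the right.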

How the data were processed

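RNA of sorted kidney Tregs was hybridised to 2 single-colour Agilent mouse arrays. The images were read with Agilent Feature Extraction 10.7.1.1, per the submitters' processing notes. The processed signal intensity was background-subtracted and detrended within the array, per the file headers, and not normalised between arrays. The authors' deposited value table gives each probe a linear ratio, and how they made it is not stated in the labels or headers. Set against the scanner output, it was the processed signal over a constant of each array, with column medians of 0.069 for the column labelled lot M and 0.070 for the column labelled lot I, neither a log value nor centred by gene. Its direction against the labels stays unsettled.

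Of 62976 spots per array, 3671 control spots and the outlier spots (56 on array 2, 75 on array 1) were left out, no spot was saturated, and spots of one probe were averaged. The log2 of each array's 75th percentile over the probes was subtracted from the log2 signals. Of the probes, 30558 (54.0%) passed the flag for signal well above background in array 2 and 30576 (54.0%) in array 1. Probes were named through RefSeq accessions (GRCm38.p6, for names and promoter sequences only), which gave 32994 probes 1 symbol. The number of arrays limits the precision. The scanner's spike-in slope was 0.910 on array 2 and 0.938 on array 1. Both arrays were scanned in 1 run, so no batch could be separated.

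The members and lists were chosen with earlier results of these data known. Named were all members, the other clock transcription factors and the 3 largest differences of each further list; other genes in the text were named after their values were seen, and some genes of the lists are not reported here. The gene-level steps were tested on simulated data. Alternatives were normexp (limma 3.58.1, offset 50), other scalings, filters, probe rules, fold limits and the value table.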

Additional observations from a re-analysis of the deposited data

How the results depend on the processing

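No paired analysis was possible because each lot has 1 array. With 1 array per lot, no array could be left out. Per1 and Per2 stayed higher and Cry1, Nr1d1 and Nr1d2 lower on array 2 under every alternative run except the value table taken by its column labels, which exchanges the arrays. By those labels the difference of Per1 was -0.37, that of Cry1 0.26, the median of the repressors 0.049 and that of the proximal tubule genes -1.17. Otherwise Per1 ranged from 0.30 to 0.40, Per2 from 0.16 to 0.71 and Cry1 from -0.56 to -0.19, the 0.71 and -0.56 with no filter on dim probes, which adds a probe not well above background. Without that filter the activators had a median of 0.32, from the dim probe of Clock. Scaling by 9 spike-ins gave a median of -0.071 over the 10 genes, with 2 higher on array 2. Dbp changed sign under 4 alternatives, Clock under 2, and Arntl, Per3 and Tef under 1 each. No member was 2-fold apart under any alternative, and at limits of 1.5 and 4 the count with the chosen processing was also 0. Matching the value table by value and scaling without nephron genes were chosen after seeing the data. Dim probes of Per2, Per3 and Cry1 limit what can be said of these genes.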

Other observations

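Immediate early genes, the fast response genes of stimulated cells to which Per1 also belongs, were bright on both arrays and split in direction. Of 9, 6 were higher on array 2, beside 53.8% of all genes, with a median of 0.08. No difference was past 2 errors, a limit that is wide on bright probes. The AP-1 gene Fos stood at a level of 4.08 on array 2, against 4.40 on array 1 (-0.31 ± 0.20), and its relative Fosb 0.98 on array 2 and 1.31 on array 1 (-0.33 ± 0.20). Among the same 7793 genes as for Per1, 0.834% were as low as Fos or lower, and 0.693% as low as Fosb or lower. Both shares are smaller than the 3.26% that were at least as high as Per1. Egr2, a factor induced by T cell receptor signals, was at 4.33 on array 2 and 4.17 on array 1 (0.16 ± 0.20). At least as high as Egr2 were 11.4% of those genes. Dusp1, a phosphatase gene induced both by stress and by glucocorticoids, differed by 0.10 ± 0.20.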
